A study of Mus musculus with 23 samples.

Results

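The genes followed here are 9 of the 55487 gene IDs in the count tables, all known from reactive glia and inflammation: Lcn2, C3, Serpina3n, Cxcl10, Ccl2, Timp1, Steap4, Cd44 and Osmr. They were chosen by name, with earlier results of these data known, and each symbol matched 1 Ensembl ID. The gene lists below were chosen with the same knowledge, so counts of called genes in them are a description. The cultures came from hippocampi of C57Bl/6 mouse pups of postnatal day 1 and grew in microfluidic chambers, where axons reach a compartment of their own. Magnetic nanoparticles (MNPs) were added to every culture, controls included, at 5 µg/ml. A magnetic gradient of 50 T/m was then applied to the stretched groups between DIV 1 and DIV 6 (DIV, day in vitro); it was null in the control groups. RNA was taken from the axonal side (control axon, n = 5, and stretched axon, n = 6) or from the cell-body side, which the labels describe as the whole culture (control soma and stretched soma, n = 6 each). The labels do not say how many animals or chambers stand behind a library, so p-values measure the spread between these libraries, which may be technical.

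Total counts per library ran from 16369153 to 43048953, and 3 counts correspond to between 0.0697 and 0.183 CPM, the counts scaled to a library total of 1000000. Soma libraries held counts for 22452 to 24575 genes and axonal libraries for 4263 to 10242. The labels call the axonal RNA a pure axonal preparation, yet the summed level of 10 astrocyte markers was 6523 to 29574 CPM in control axons and 6683 to 23835 CPM in stretched axons, against 5979 to 15886 CPM in control somata. Gfap, the astrocyte filament gene, had counts in all 11 axonal libraries. Neuron markers summed to 2894 to 6145 CPM in axons and 7591 to 9355 CPM in somata. The soma libraries fell into 2 sets of 6 by Eif2s3y, a gene on the Y chromosome: 24.7 to 28.7 CPM in control replicates 1, 2 and 3 and stretched replicates 1, 2 and 8, and 5.39 to 13.2 CPM in the other 6. The labels name no such division, and each set holds 3 control and 3 stretched libraries. Leaving out control soma replicate 4 raised the number of genes with an edgeR adjusted p under 0.05 for stretch in somata from 3929 to 6072. Results are therefore also given without it.

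Astrocytes and microglia answer injury, cytokines and culture conditions with a shared set of secreted and surface proteins. Lcn2 encodes lipocalin 2, an iron-siderophore carrier; C3 is the central component of complement; Serpina3n is a secreted serine protease inhibitor. Cxcl10 and Ccl2 are chemokines that attract T cells and monocytes, and Timp1 is a secreted inhibitor of matrix metalloproteinases. Steap4 is a membrane metalloreductase, Cd44 is the hyaluronan receptor, and Osmr is the receptor subunit that binds oncostatin M together with gp130, the product of Il6st. Transcription of such genes is known to be driven by NF-kappaB, STAT3, interferon-activated factors and AP-1.

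The promoters of 3 of the genes are shown because they hold matches to motifs of more than 1 of those factors (Cxcl10 and Steap4) or belong to the member with the largest difference between the sets of libraries (C3). RefSeq windows of the build GRCm38.p6, from 250 bases before the start site through 50 bases from it on, were found for 8 of the 9 genes, all but Ccl2. Capitals mark matches on either strand to the kappaB consensus of NF-kappaB, to TTCNNNGAA (the STAT motif), to the interferon-stimulated response element (ISRE: GAAA, any 2 bases, GAAA), to TGANTCA (AP-1) and to TATAAA. The Cxcl10 window is chr5:92348840-92349139 (minus strand), the Steap4 window chr5:7960222-7960521 (plus strand) and the C3 window chr17:57228087-57228386 (minus strand).
Cxcl10: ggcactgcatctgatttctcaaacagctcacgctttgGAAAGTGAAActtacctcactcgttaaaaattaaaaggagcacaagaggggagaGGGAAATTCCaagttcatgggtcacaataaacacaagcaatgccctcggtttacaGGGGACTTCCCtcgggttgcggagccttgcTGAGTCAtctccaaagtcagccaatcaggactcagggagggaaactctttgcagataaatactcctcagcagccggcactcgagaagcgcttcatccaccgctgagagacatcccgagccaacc
Steap4: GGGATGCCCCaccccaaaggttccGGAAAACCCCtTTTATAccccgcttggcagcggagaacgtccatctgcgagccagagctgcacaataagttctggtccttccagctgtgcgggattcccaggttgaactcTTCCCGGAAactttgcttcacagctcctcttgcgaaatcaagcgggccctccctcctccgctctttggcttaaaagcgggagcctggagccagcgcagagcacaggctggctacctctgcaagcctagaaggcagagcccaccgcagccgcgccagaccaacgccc
C3: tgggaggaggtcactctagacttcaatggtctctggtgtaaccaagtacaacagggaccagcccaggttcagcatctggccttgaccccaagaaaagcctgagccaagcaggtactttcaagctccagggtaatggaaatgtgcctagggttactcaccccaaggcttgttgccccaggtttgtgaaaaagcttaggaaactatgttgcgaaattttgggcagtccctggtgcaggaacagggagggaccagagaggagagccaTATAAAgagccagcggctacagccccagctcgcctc
In Cxcl10 the ISRE match began at -213, kappaB matches at -159 and, overlapping each other, at -104 and -103, and an AP-1 match at -74, counted from the start site. In Steap4 kappaB matches began at -250 and -226, a TATAAA match on the reverse strand at -215 and a STAT match at -116. C3 held only a TATAAA match at 15, inside the transcribed part. Of the other windows, Osmr held an AP-1 match at 4, and Lcn2, Serpina3n, Timp1 and Cd44 held none. Among 32851 promoter windows of this length, 8.46% held the kappaB consensus, 8.3% the STAT motif, 3.44% the ISRE, 7.81% the AP-1 motif and 13.6% TATAAA. A match is a string of letters and was not tested as a binding site.

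All 9 genes had counts above the floor in all 12 soma libraries. Levels per kilobase of the longest transcript in control somata were highest for Lcn2 (74.3 ± 43.9 CPM per kb, SD, n = 6) and Serpina3n (68.3 ± 26.0). Ccl2 (31.9 ± 16.5), Steap4 (18.7 ± 7.50), Timp1 (12.3 ± 2.06) and Cd44 (11.5 ± 1.63) followed, and Cxcl10 (3.45 ± 1.84), Osmr (2.63 ± 0.558) and C3 (1.53 ± 1.01) came last. The one step without overlap of neighbours lay between Cd44 and Cxcl10; the ranges of all other neighbours in that order overlapped. In stretched somata Serpina3n (57.9 ± 16.4 CPM per kb, SD, n = 6) stood before Lcn2 (44.9 ± 23.6), and Cxcl10 was last (1.95 ± 1.30). There the step without overlap lay between Timp1 (7.35 ± 1.61) and Osmr (3.72 ± 0.718).

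Timp1 was lower and Osmr higher in stretched than in control somata, the 2 of the 9 genes called in the edgeR quasi-likelihood fit of 12 libraries with a Benjamini-Hochberg adjusted p under 0.05. Over all 15632 genes tested, 25.1% were called, 11.2% higher and 13.9% lower, so 2 of 9 is near the background share. The median log2 fold change of the 9 was -0.10 and that of all genes tested was -0.03. With the set of libraries as a term, the calls were C3, Steap4 and Osmr higher and Timp1 and Cxcl10 lower, 5 of 9, where 33.9% of all genes were called. The groups overlapped for all 9 genes over the 12 libraries; of all genes tested, 1.84% were higher and 2.27% lower without overlap. In bulk RNA, fewer cells of a type and less RNA per cell cannot be told apart.

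**Figure D1:**
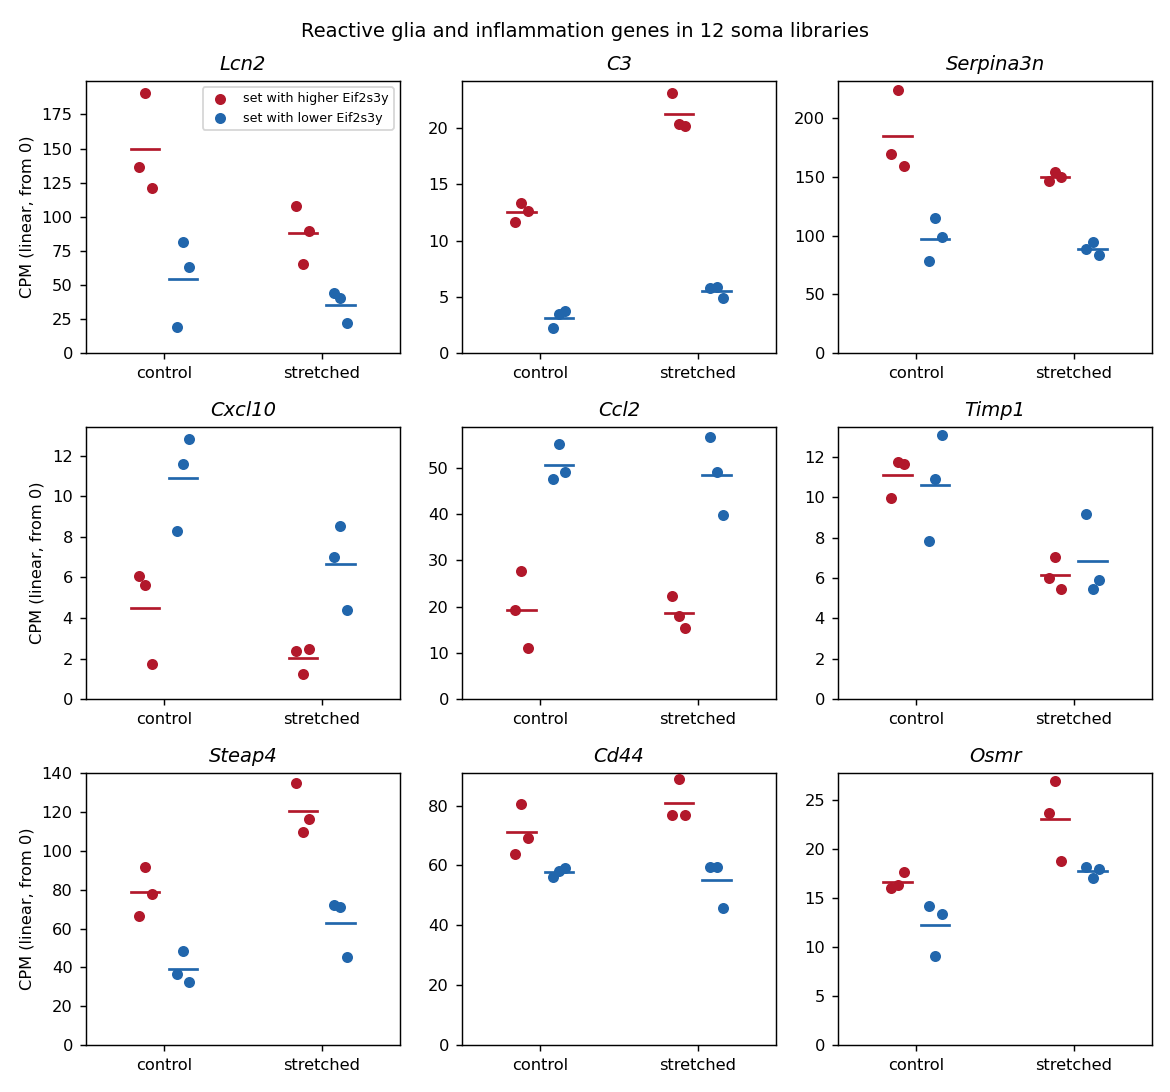
Level of each of the 9 genes in the 12 soma libraries (vertical axis, CPM, linear from 0; points are libraries, short lines are means of 3 libraries). Red points are the set with higher Eif2s3y and blue points the set with lower Eif2s3y; stretched C3 and Osmr points lie above the control points of the same colour in both sets.

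Among the secreted acute-phase genes, Lcn2 (ENSMUSG00000026822, chr2:32384633-32388252, minus strand; gene coordinates are those of GENCODE on GRCm38, the assembly also called mm10) ran from 19.3 through a median of 101 to 191 CPM in control somata and from 22.1 through 55.0 to 108 CPM in stretched somata. Within the higher Eif2s3y set the stretched libraries (65.5, 89.9 and 108 CPM) all lay below the controls (121, 137 and 191 CPM), as did 21.3% of all genes tested, and within the lower set the groups overlapped. The log2 fold change was -0.78 ± 0.47 (SE; edgeR adjusted p = 0.24), so Lcn2 was not called. With the set as a term and without control soma replicate 4, its lowest control library, it was -0.94 ± 0.22 (edgeR adjusted p = 0.00625), a fit in which 44.1% of all genes were called.

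Serpina3n (ENSMUSG00000021091, chr12:104406729-104414329, plus strand) ran from 78.5 through 137 to 224 CPM in control somata and from 83.8 through 120 to 154 CPM in stretched somata. Its log2 fold change was -0.29 ± 0.25 (SE; edgeR adjusted p = 0.42). Within the higher set the stretched libraries (146, 150 and 154 CPM) lay below the controls (159, 170 and 224 CPM), and within the lower set the groups overlapped. It was called in 2 fits that both left out control soma replicate 4, its lowest control library (78.5 CPM), and were chosen after seeing the data. With the set as a term it was -0.34 ± 0.09 (adjusted p = 0.0038), where 44.1% of all genes were called. In the remaining 5 libraries of the lower set it was -0.32 ± 0.10 (adjusted p = 0.0396), where 27.5% of all genes were called.

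C3 (ENSMUSG00000024164, chr17:57203970-57228136, minus strand) differed both by set and, within each set, by stretch. In the higher set it was 11.7, 12.6 and 13.3 CPM in controls and 20.2, 20.4 and 23.1 CPM in stretched libraries. In the lower set it was 2.28, 3.47 and 3.75 CPM in controls and 4.91, 5.84 and 5.86 CPM in stretched libraries. The groups did not overlap within either set, with a mean 1.69-fold higher in the one and 1.75-fold higher in the other. C3 and Osmr were the 2 of 9 genes higher in both sets with no overlap, where 5.22% of all genes tested were. On the log2 scale the fit of all 12 libraries gave 0.72 ± 0.53 (SE; edgeR adjusted p = 0.34), and the set as a term gave 0.74 ± 0.14 (adjusted p = 0.00213).

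The chemokines Cxcl10 and Ccl2 went the other way between sets. Cxcl10 (ENSMUSG00000034855, chr5:92346638-92348889, minus strand) was 1.74, 5.62 and 6.06 CPM in controls and 1.22, 2.37 and 2.49 CPM in stretched libraries of the higher set. In the lower set it was 8.32, 11.6 and 12.8 CPM in controls and 4.42, 7.02 and 8.56 CPM in stretched libraries. The groups overlapped in both sets, through 1 control library in each. Its log2 fold change was -0.86 ± 0.50 (SE; edgeR adjusted p = 0.22) and, with the set as a term, -0.95 ± 0.29 (adjusted p = 0.0217).

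Ccl2 (ENSMUSG00000035385, chr11:82035571-82037453, plus strand) differed little between control and stretched somata. It was 11.1, 19.3 and 27.8 CPM in controls and 15.4, 18.0 and 22.2 CPM in stretched libraries of the higher set. In the lower set it was 47.6, 49.0 and 55.2 CPM against 39.8, 49.1 and 56.6 CPM. The log2 fold change was -0.10 ± 0.42 (SE; edgeR adjusted p = 0.89).

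Timp1 (ENSMUSG00000001131, chrX:20870166-20874735, plus strand), the metalloproteinase inhibitor, fell with stretch. It ran from 7.81 through 11.3 to 13.1 CPM in control somata and from 5.43 through 5.94 to 9.15 CPM in stretched somata. The groups overlapped through control replicate 4 (7.81 CPM) and stretched replicate 4 (9.15 CPM). The log2 fold change was -0.78 ± 0.17 (SE, edgeR adjusted p = 0.00779). Timp1 was called in each of the 12 fits that left out 1 library, at between -0.88 and -0.72. With the offset on transcript length described below it was not called (-0.49, adjusted p = 0.0521), and with set and offset together it was (adjusted p = 0.0333).

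Of the membrane proteins, Steap4 (ENSMUSG00000012428, chr5:7960457-7982213, plus strand) was 66.5, 77.9 and 91.6 CPM in controls and 110, 117 and 135 CPM in stretched libraries of the higher set, with no overlap, as for 25.4% of all genes tested. In the lower set it was 32.3, 36.8 and 48.2 CPM against 45.3, 71.0 and 71.9 CPM, with 1 stretched library inside the control range. The log2 fold change was 0.59 ± 0.30 (SE; edgeR adjusted p = 0.16), and 0.61 ± 0.13 with the set as a term (adjusted p = 0.00378).

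Cd44 (ENSMUSG00000005087, chr2:102811141-102901665, minus strand) ran from 56.0 through 61.5 to 80.5 CPM in control somata and from 45.9 through 68.3 to 88.9 CPM in stretched somata. The log2 fold change was 0.03 ± 0.14 (SE; edgeR adjusted p = 0.89), the smallest of the 9 genes in size.

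Osmr (ENSMUSG00000022146, chr15:6813577-6874969, minus strand), the oncostatin M receptor, rose with stretch by a narrow call. It ran from 9.03 through 15.1 to 17.6 CPM in control somata and from 17.0 through 18.5 to 26.9 CPM in stretched somata. The overlap came from control replicate 3 (17.6 CPM) against stretched replicate 5 (17.0 CPM), and these lie in different sets. The log2 fold change was 0.46 ± 0.16 (SE; edgeR adjusted p = 0.0499). It stayed under the threshold in 3 of 12 fits that left out 1 library, those without control replicate 3 (adjusted p = 0.0446), stretched replicate 4 (0.0466) or stretched replicate 5 (0.0495), and reached 0.127 without stretched replicate 2. With the set as a term it was 0.46 ± 0.13 (adjusted p = 0.0108). With the offset on transcript length described below, Osmr was not called (0.25, adjusted p = 0.338). Nor was it with set and offset together (0.27 ± 0.12, edgeR adjusted p = 0.108).

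Without control soma replicate 4, Timp1 was the 1 gene of 9 called in the fit with no set term, at -0.88 ± 0.16 (edgeR adjusted p = 0.000673), and 38.3% of all genes were called. With the set as a term and without that library, 7 of 9 were called, all but Ccl2 and Cd44, where 44.1% of all genes were called. Within the higher set alone, C3, Steap4, Timp1 and Lcn2 were called (29.2% of all genes). Within the lower set alone no gene was called, member or not (0 of 15718 by edgeR, 2739 at an unadjusted p under 0.05); that p was under 0.05 there for C3, Steap4, Osmr, Timp1 and Cxcl10.

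The sum of 10 microglia markers was 47.7 to 98.1 CPM in control somata and 38.9 to 51.7 CPM in stretched somata, and 2 of 9 tested were called, both lower, beside 13.9% lower over all genes. They were C1qa (-1.35 ± 0.22, edgeR adjusted p = 0.00313) and Tyrobp (-0.80 ± 0.21, adjusted p = 0.0151; 0.0884 with a transcript length offset). The astrocyte marker sum was 5979 to 15886 CPM in control and 6081 to 12723 CPM in stretched somata. Of 10 astrocyte markers 0 were called by edgeR (1 at an unadjusted p under 0.05). With the set as a term 2 of 10 were called, where 33.9% of all genes were. The part of microglia and astrocytes in the results for the 9 genes was not tested.

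**Figure D2:**
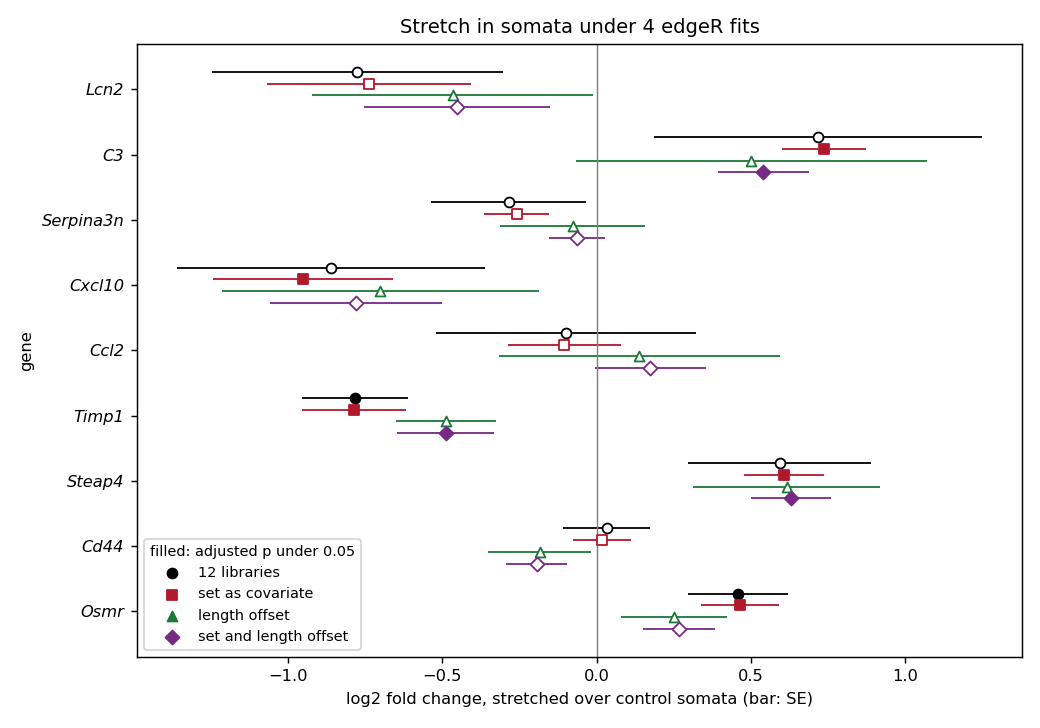
Log2 fold change of stretched over control somata (horizontal axis; bars are SE) for the 9 genes under 4 edgeR fits, with filled symbols where the adjusted p was under 0.05. Timp1 and Osmr are filled in the fit of 12 libraries, 5 genes with the set as a term, none with the length offset, and C3, Timp1 and Steap4 with both.

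Fold changes in somata followed transcript length over all genes, which bears on how the 9 genes are read. The median log2 fold change of tested genes was -0.40 for transcripts up to 1000 bases, the range of Timp1 (883 bases). It was -0.33 between 1000 and 1500 bases (Lcn2 and Ccl2) and -0.23 between 1500 and 2500 bases (Serpina3n and Cxcl10). It was -0.04 between 2500 and 4000 bases (Steap4) and 0.19 between 4000 and 6000 bases (C3, Cd44 and Osmr). With an offset that removes the trend on length, Timp1 was -0.49 ± 0.16 (edgeR adjusted p = 0.0521), Osmr 0.25 ± 0.17 (adjusted p = 0.338), and 0 of 9 genes were called by edgeR, where 15.6% of all genes were; Timp1 was the 1 gene of 9 at an unadjusted p under 0.05. With the set as a term beside the offset, 3 of 9 were called (23.3% of all genes): Steap4 at 0.63 ± 0.13 (adjusted p = 0.00547), C3 at 0.54 ± 0.15 (adjusted p = 0.0158) and Timp1 at -0.49 ± 0.16 (adjusted p = 0.0333).

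**Figure D3:**
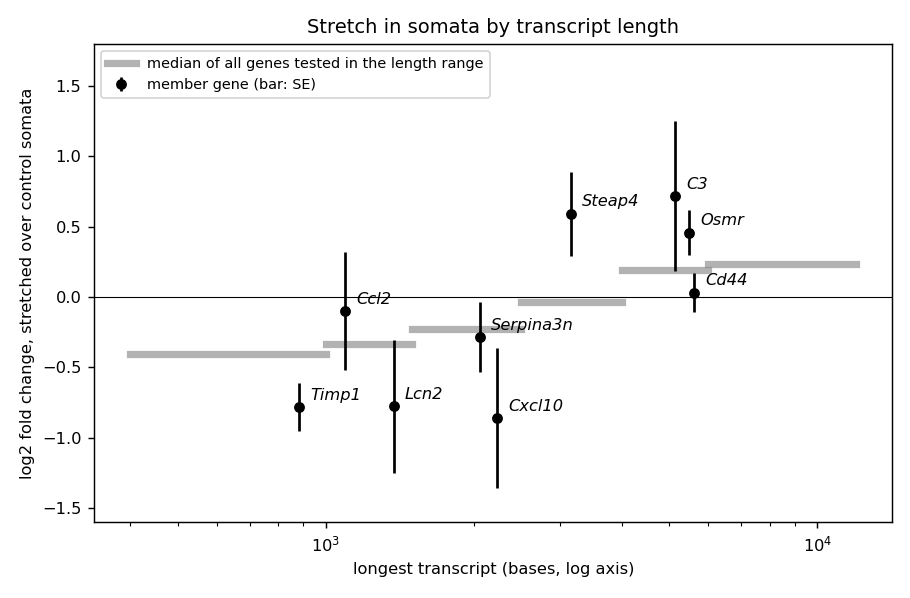
Log2 fold change of stretched over control somata (vertical axis) against the length of the longest transcript (horizontal axis, log scale) for the 9 genes (points; bars are SE), with the median of all tested genes in each length range (grey lines; the outer ranges are open-ended). Timp1, Lcn2, Cxcl10, Serpina3n and Cd44 lie below the grey line of their range, and Steap4, C3, Osmr and Ccl2 above theirs.

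Most of the 9 genes also differed between the sets of libraries. Without overlap in control or in stretched somata, 6 of the 9 genes (Lcn2, C3, Serpina3n, Steap4, Cd44 and Osmr) were higher in the set with higher Eif2s3y, against 5.94% of all genes tested. Cxcl10 and Ccl2 were lower there in the same way, against 4.67% of all genes, and Timp1 overlapped. C3 was 3.97-fold higher in control and 3.84-fold higher in stretched libraries of that set, and Lcn2 2.73-fold and 2.46-fold. Ccl2 was 2.61-fold and 2.62-fold higher in the other set. The astrocyte marker sum moved with the sets, at 12292 to 15886 CPM in controls of the higher set and 5979 to 7583 CPM in controls of the lower set. Whether that accounts for the members was not tested, and no p is given because the sets were defined from the data.

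Over the 12 soma libraries, the genes most like each member were taken as those with the highest Pearson correlation of deviations from the group means, and they are a description, since the 2 sets shape every such value. Serpina3n was most like Gfap (r = 0.984, and 0.923 with the set means removed too), then Hspb8 and Prdx6. C3 was most like Cybrd1 (r = 0.989, 0.715 with the set means removed), then Cst3 and Prdx6. Lcn2 was most like the class I histocompatibility gene H2-K1 (r = 0.979, 0.941), then Cib1 and Acsbg1. Steap4 was most like Slc1a3, the astrocyte glutamate transporter GLAST (r = 0.970, 0.860), then Pacsin3 and Oplah. Cd44 was most like Arhgap18 (r = 0.976, 0.906), then S1pr3 and Slc1a3. The chemokine Ccl2 was most like Pcdh11x (r = 0.993, 0.973), then Nars and Rgs4, and Cxcl10 most like Bdnf (r = 0.966, 0.892), then Oca2 and Ddx50. Timp1, which did not follow the sets, reached 0.891 with Tex264, before Ufc1 and Rsph9, and Osmr reached 0.927 with Tcf7l2, before Nprl3 and Cers2. Between members, Lcn2 and C3 stood at 0.879 and at 0.921 with the set means removed, and Cxcl10 and Ccl2 at 0.929 and 0.737.

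Il6st and Lifr, whose products are signalling subunits of the same receptor family as Osmr, rose in stretched somata. In a list of 17 genes of oncostatin M, LIF and IL-6 signalling, 14 were tested and 9 were called by edgeR, 6 higher and 3 lower, beside 25.1% of all genes. The list was chosen with earlier results of these data known, so that count is a description. Il6st, which encodes gp130, the signalling partner of Osmr, rose from 49.0 to 86.6 CPM in controls to 87.2 to 125 CPM in stretched somata, with no overlap (log2 fold change 0.70 ± 0.14, SE, adjusted p = 0.00616). Lifr, the LIF receptor, rose by 0.66 ± 0.14 (adjusted p = 0.00774). Il11, a cytokine of the same family, was lower at -1.78 ± 0.47 (adjusted p = 0.0156), and Il6ra, the IL-6 receptor, at -0.98 ± 0.25 (adjusted p = 0.0131). The other calls of that list were Osmr, the kinases Jak1, Jak2 and Tyk2, all higher, and Cntfr, lower. With the length offset 7 of the 14 were called, 3 higher and 4 lower, where 15.6% of all genes were. Il6st (0.49, adjusted p = 0.017) and Lifr (0.46, adjusted p = 0.0109) were among the 7. Oncostatin M itself (Osm) was at 0.0422 to 1.28 CPM in control and 0 to 0.38 CPM in stretched somata, at or near the floor.

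The calls in the lists of reactive astrocyte genes are read beside 11.2% higher and 13.9% lower over all genes. Of 13 pan-reactive astrocyte genes, 7 of them members, 4 were called: Osmr higher, and Timp1, Vim and the heat shock protein gene Hspb1 (-1.45 ± 0.26, adjusted p = 0.00428) lower. Of 11 tested A2-type genes 4 were called, all lower, led by Ptx3 (-1.83 ± 0.36, adjusted p = 0.00599) and Tm4sf1 (-1.22 ± 0.33, adjusted p = 0.0205). Of 12 tested A1-type genes the 1 called was Amigo2 (-1.21 ± 0.30, adjusted p = 0.0124). With the set as a term 33.9% of all genes were called. The calls there were 3 higher and 4 lower in the pan-reactive list and 1 higher and 2 lower in the A1-type list. With the length offset 2 of 13 pan-reactive, 3 of 11 A2-type and 1 of 12 A1-type genes were called, all lower, where 15.6% of all genes were called. Of 18 complement genes 2 were called, C1qa, given above, and C1qb (-0.80 ± 0.16, adjusted p = 0.00616), both lower; C1q is the starter of the classical pathway and a microglial product, while C3 itself was not called in the fit of 12 libraries.

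No chemokine or chemokine receptor of 17 tested was called by edgeR (1 at an unadjusted p under 0.05). With the set as a term 3 of 17 were called, where 33.9% of all genes were. In the fit of 12 libraries 1 of 18 interferon-induced genes was called, Stat2 (0.49 ± 0.14, adjusted p = 0.0231). Of 18 genes of NF-kappaB, TNF, IL-1 and Toll-like receptor signalling, 2 were higher, Traf6 (0.42 ± 0.15, adjusted p = 0.0498) and Ikbkb (0.31 ± 0.09, adjusted p = 0.0217), and 2 lower, Nfkbia (-0.59 ± 0.13, adjusted p = 0.00703) and Rela (-0.54 ± 0.13, adjusted p = 0.0114). With the length offset Traf6 (0.21, adjusted p = 0.227), Ikbkb (0.15, adjusted p = 0.202) and Stat2 (0.37, adjusted p = 0.0559) were no longer called, while Nfkbia and Rela were. Nfkbia encodes the inhibitor IkappaB-alpha and is itself a target of the pathway.

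Of 16 tested binding partners and enzymes of the 9 proteins, 8 were called, 3 higher and 5 lower, beside 11.2% higher and 13.9% lower over all genes. That list too was chosen with earlier results known. Has3, a hyaluronan synthase that makes the ligand of Cd44, rose by 1.23 ± 0.24 (adjusted p = 0.00562), and Spp1, the Cd44 ligand osteopontin, was lower at -1.31 ± 0.35 (adjusted p = 0.0185). Mmp3, a target of Timp1, was lower at -1.16 ± 0.36 (adjusted p = 0.0333). With the length offset Spp1 (adjusted p = 0.0599) and Mmp3 (adjusted p = 0.103) were no longer called. The receptors of the 2 chemokines were at the floor: Ccr2 had no count in any soma library and Cxcr3 at most 0.0985 CPM.

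In axonal libraries, detection was sparse and varied from library to library. Each held counts for 2 to 6 of the 9 genes in control axons and for 0 to 5 in stretched axons, where replicate 5 held none. Among 8922 genes with a like mean soma level (6.02 to 130 CPM), the median axonal library had counts for 31.3% in controls and 38.2% in stretched cultures. Cd44 had counts in 9 of the 11 axonal libraries, and 9.16% of the like-level genes had counts in at least 9. Ccl2 had counts in 8, and 14.3% of the like-level genes had counts in at least 8. C3 and Osmr had none in any axonal library, as did 5.87% of like-level genes. The part of astrocyte RNA, whose marker sum in axons was 6523 to 29574 CPM in controls and 6683 to 23835 CPM in stretched libraries, was not tested.

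**Figure D4:**
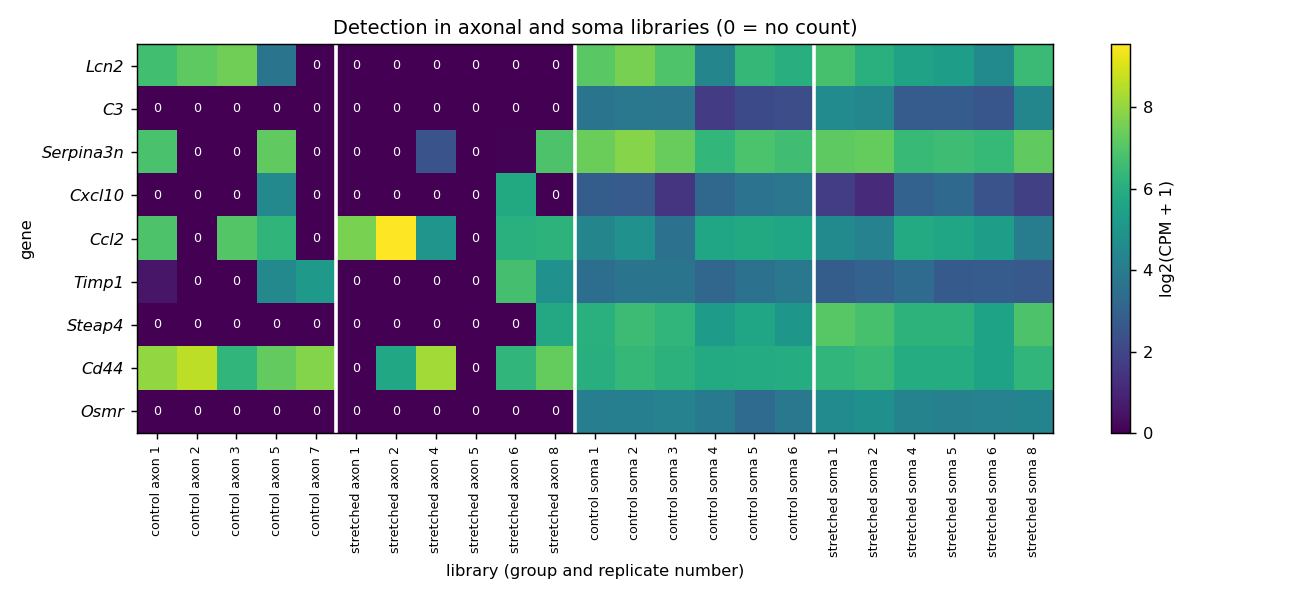
Level of the 9 genes in all 23 libraries (rows are genes, columns are libraries by group and replicate number; colour is log2(CPM + 1), and 0 marks no count). All 9 genes have counts in the 12 soma libraries; C3 and Osmr have none in the 11 axonal libraries and Lcn2 has none in the 6 stretched axon libraries.

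Lcn2 was 99.0, 144, 178, 11.8 and 0 CPM in the 5 control axon libraries and 0 in all 6 stretched ones. The control mean of 86.4 CPM was at least 620-fold above the mean floor of 3 counts in stretched axons. That bound covers counting error only and is no measure of size, since control axon replicate 7 was at 0 as well. Of 8922 like-level genes, 5 (0.056%) had counts in at least 4 of 5 control and 0 of 6 stretched axons. This pattern was singled out after its values were seen. Lcn2 did not pass the count filter in axons, and without the filter the edgeR adjusted p was 0.127.

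Cd44, the member with counts in most axonal libraries, was higher in the median control than in the median stretched library. It was 76.9, 152, 219, 253 and 389 CPM in control axons and 0, 0, 51.8, 77.3, 156 and 296 CPM in stretched axons, so the groups overlapped (log2 fold change -1.10 ± 1.95, SE, edgeR adjusted p = 1.0). Ccl2 was 0, 0, 76.1, 116 and 127 CPM in control axons and 0, 30.4, 66.6, 71.1, 196 and 751 CPM in stretched axons (1.38 ± 2.36, adjusted p = 1.0). Timp1 was 0, 0, 0.501, 21.7 and 34.5 CPM against 27.5 and 106 CPM in 2 stretched libraries and 0 in 4 (1.03 ± 2.88, adjusted p = 1.0). These 3 genes passed the filter, and 0 of 4947 genes (0%) were called for stretch in axons by edgeR (46 at an unadjusted p under 0.05, and 18, or 0.364%, called by DESeq2, none of them a member).

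The remaining members were seen in scattered axonal libraries. Serpina3n was 111 and 148 CPM in 2 control axons and 0 in 3, and 118, 4.42 and 0.0521 CPM (1 count) in 3 stretched axons and 0 in 3. Cxcl10 appeared in 1 control (21.8 CPM) and 1 stretched axon library (55.5 CPM), above its highest soma level of 12.8 CPM. Steap4 appeared in stretched axon replicate 8 alone (53.8 CPM).

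Against control somata, control axons were lower for C3, Osmr and Steap4 and higher for Cd44, 4 of 9 by edgeR, where 34.4% of 14728 genes were lower and 0.856% higher. The bounds, which cover counting error only, were at least 61.9-fold for C3, 113.6-fold for Osmr and 463-fold for Steap4. Cd44 averaged 218 ± 117 CPM in the 5 control axon libraries and 64.5 ± 9.15 CPM in the 6 control soma libraries (SD), a difference of 1.45 ± 0.50 on the log2 scale (SE; edgeR adjusted p = 0.0404). That call held in 4 of 11 fits that left out 1 library, and adjusted p reached 0.0942 without control soma replicate 1.

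In stretched cultures, axons were lower than somata for Lcn2 (at least 443-fold), Osmr (at least 146-fold) and C3 (at least 96.0-fold), 3 of 9, where 28.4% of 14466 genes were lower and 0.843% higher. These bounds too cover counting error only. Cd44 was 96.9 ± 114 CPM in axons and 68.0 ± 15.7 CPM in somata (SD, n = 6 each; log2 fold change 0.09 ± 1.61, adjusted p = 0.99). Without stretched axon replicate 8, Steap4 and Serpina3n (-7.57, adjusted p = 0.0189) were called lower too (42.3% of all genes), and without stretched axon replicate 6 Cxcl10 was (34% of all genes). In control cultures Cxcl10 was called lower without control axon replicate 5 (52.4% of all genes). Each of these calls rests on taking out the library that holds nearly all of that gene's axonal counts.

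The difference between the stretch effect in axons and that in somata was called for Lcn2 (-13.09 ± 2.02, SE, edgeR adjusted p = 0.00817) and Steap4 (10.08 ± 3.07, adjusted p = 0.0241), 2 of 9, where 21.8% of 16113 genes were called. Both fitted values rest on groups with all or nearly all axonal libraries at 0 and are no measure of size. In limma voom with a weight per group, which lets axons and somata differ in spread, 3 genes of 16113 were called and no member was (0.0186% of genes; adjusted p = 1.0 for Lcn2 and Steap4).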

How the data were processed

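Poly(A) RNA from 23 libraries (control axon 5, stretched axon 6, control soma 6, stretched soma 6) was measured by RNA-seq. The authors deposited raw counts, 1 value for each Ensembl gene ID and library; per the submitters' processing notes these involved FastQC 0.11.9, MultiQC 1.12, fastp 0.20.1, STAR 2.7.08a, HTSeq 0.13.5 and mm10. Per the labels, libraries carried unique molecular identifiers; whether duplicates were removed, strand and annotation are not given in the sources used here. Floors cover counting error only.

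Symbols came from GENCODE (55141 of 55487 IDs). CPM used total gene counts, without uncounted reads. Tests were edgeR 4.0.16 (R 4.3.3) with filterByExpr, TMM, robust quasi-likelihood F tests and Benjamini-Hochberg adjustment over all genes tested, threshold 0.05; SE is the log2 fold change over the square root of F. Alternatives were DESeq2 1.42.0, limma 3.58.1, other scalings, no filter, leaving out each library, the replicate block, the set of libraries and a length offset (mgcv 1.9.3). On simulated soma counts (15417 genes) 72% of 2-fold and 95.9% of 4-fold changes were called, and on simulated axon counts (4100 genes) none were. The simulated libraries were independent, with no sets of libraries and no trend on transcript length. These shares therefore need not hold for the real libraries.

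The members and lists were chosen with earlier results of these data known. Beside the members, the 2 highest and 2 lowest called genes of each list with a mean of at least 1 CPM are named, and the 3 genes most like a member (soma mean of at least 10 CPM, log2 of TMM-normalized CPM plus 1) were computed.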

Additional observations from a re-analysis of the deposited data

Results flagged for a closer look

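In groups of 5 or 6 libraries, 1 library lay far from the rest of its group in 6 of the 30 combinations of gene and group with any counts. The rule flags about 1 in 20 groups by chance when values spread evenly around a centre, a rate that does not apply to sparse counts. All 6 are axonal, and in 3 of them (Cxcl10 in both groups and Steap4) a single library held all counts, which by itself meets the rule. They are Serpina3n at 118 CPM in stretched axon replicate 8, Cxcl10 at 21.8 CPM in control axon replicate 5 and at 55.5 CPM in stretched axon replicate 6, Ccl2 at 751 CPM in stretched axon replicate 2, Timp1 at 106 CPM in stretched axon replicate 6 and Steap4 at 53.8 CPM in stretched axon replicate 8.

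The stretch effect differed between axons and somata by the edgeR interaction test for Lcn2 (-13.09) and Steap4 (10.08). The first rests on 4 control axon libraries with counts and the second on 1 stretched axon library, and neither was called by limma voom.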

How the results depend on the processing

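Leaving out 1 library at a time gave 2666 to 6072 called genes for stretch in somata (3929 with all 12) and 1 to 2 members; 6072 came without control soma replicate 4. The range was 4542 to 8151 for control axons against somata (8151 without control axon replicate 5) and 4174 to 6499, with 3 to 5 members, for stretched axons against somata (6499 and 5 without stretched axon replicate 8). It held no call for stretch in axons. Signs turned in these fits for Ccl2 (-0.30 to 0.10) and Cd44 (-0.066 to 0.11) in somata, Timp1 (-1.01 to 0.21) in control axons against somata, and Cxcl10 (-9.99 to 1.04), Timp1 (-0.47 to 1.71) and Cd44 (-0.58 to 0.36) in stretched ones, none of which was called with all libraries.

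In somata the set as a term gave 5 members, the higher set alone 4, the lower set alone 0 (0 genes called), the lower set without control soma replicate 4 again 4 (27.5% of all genes called), and the set as a term without that library 7 (7000 genes called); the last 2 were chosen after seeing the data. The length offset gave 0 members and 2435 genes. Cd44 turned to -0.10 in the lower set, -0.15 there without control soma replicate 4, -0.02 without that library alone, -0.18 with the length offset and -0.19 with set and offset, and Ccl2 to 0.14 and 0.17 with those offsets; neither was called in any of them. Every same-numbered soma pair also shares a set, so correlations of deviations from the group means bear on pairing by replicate number only within sets. Same-numbered soma libraries correlated at 0.0752 to 0.285 (mean 0.211). Soma libraries of unlike number in the same set correlated at 0.00059 to 0.398, a range that holds every same-numbered value. These values thus show no pairing by number beyond the set. All soma pairs of unlike number, those across sets included, ran from -0.454 to 0.398 (mean -0.034). Not every library correlated best with its own number. Between axons and somata, same-numbered libraries correlated at 0.0263 to 0.0702 in control and -0.0205 to 0.0273 in stretched cultures. Those of unlike number correlated at -0.137 to 0.131 and -0.0357 to 0.035. With the replicate block, 5 of 9 members and 3227 of 15584 genes were called in somata. The same libraries with no block gave 1 member and 2702 of 15584 genes. Block and length offset together gave 1887 of 15571 genes, Ccl2 at 0.10 and Cd44 at -0.23. Cd44 was -0.013 with the block alone. In control axons against somata Cd44 was not called with the block (1.20, adjusted p = 0.725) or in the same 8 libraries with no block (1.36, adjusted p = 0.181). In stretched axons against somata the block gave 7687 of 14466 genes and 6 of 9 members, with Cxcl10 at -8.65, Timp1 at -8.22 and Cd44 at -1.40.

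DESeq2 called 18 genes for stretch in axons, against 0 by edgeR. With no filter, 10714 genes were called in control and 10931 in stretched axons against somata, since more genes at 0 in axons entered. Total counts alone turned Timp1 in control axons against somata to 0.066. In limma voom the interaction gave 3 genes and 0 members, with Timp1 at -1.96 and Cxcl10 at -0.26. The cause of these changes was not tested. Sparse detection limits every axonal value.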

Other observations

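Osteopontin (Spp1), a ligand of Cd44 that was lower in stretched somata, was higher in stretched axons than in stretched somata. It was 2452 ± 2167 CPM in axons and 155 ± 40.9 CPM in somata (SD, n = 6 each; log2 fold change 3.44 ± 0.81, SE, edgeR adjusted p = 0.00472), with axonal libraries from 94.0 to 5838 CPM, so the groups overlapped. Hspb1, a pan-reactive astrocyte gene that was also lower in stretched somata, was 119 ± 153 CPM in stretched axons, 1 of them at 0, and 1.74 ± 0.655 CPM in stretched somata (5.47 ± 1.499, edgeR adjusted p = 0.0133). Cd63, which encodes a surface partner of Timp1, was higher there too (0.96 ± 0.24, edgeR adjusted p = 0.00739). Hspb1 was 32.6 ± 64.4 CPM in control axons (SD, n = 5, counts in 2) and 4.61 ± 1.03 CPM in control somata. The binding-partner list, which holds Spp1 and Cd63, summed to 954 to 8816 CPM in control and 1064 to 8527 CPM in stretched axons. None of its genes was called higher in control axons than in control somata, and edgeR called 0 of 4947 genes for stretch in axons.

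Of 10 neuron markers in somata, 6 were called by edgeR, 1 higher and 5 lower, beside 11.2% higher and 13.9% lower over all genes. With the length offset 2 of 10 were called, both lower, where 15.6% of all genes were called. Dcx rose (0.35 ± 0.11, adjusted p = 0.0326), Nefm fell (-0.75 ± 0.13, adjusted p = 0.00396) and so did Rbfox3 (-0.90 ± 0.30, adjusted p = 0.045). Of 7 tested oligodendrocyte lineage markers 1 was called, Mog, higher (0.73 ± 0.19, adjusted p = 0.0156). With the set as a term Mog stayed higher, while Olig1 (-1.80, edgeR adjusted p = 0.0123) and Cnp (-0.31, adjusted p = 0.0211) were called lower. The sum of the 10 listed was 117 to 195 CPM in control and 105 to 149 CPM in stretched somata. Of 7 tested fibroblast and pericyte markers 2 were called, Rgs5 higher (0.38 ± 0.12, adjusted p = 0.0345) and Dcn lower (-0.83 ± 0.23, adjusted p = 0.0191). With the length offset Dcx (0.13, adjusted p = 0.212), Rbfox3 (adjusted p = 0.0715) and Rgs5 (adjusted p = 0.0849) were no longer called, and Rbfox3 was not with the set as a term either (adjusted p = 0.0531).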
